A study of Rattus norvegicus with 17 samples.

Results

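The genes described here are 8 rat genes known from injured tissue and from phagocytes: the galectins Lgals3 and Lgals1, the annexins Anxa1, Anxa2 and Anxa3, the adhesion receptor Cd44, and the secreted or membrane glycoproteins Spp1 (osteopontin) and Gpnmb. They are 8 of the 14218 genes that have a probe set of their own on the array, and they hold 13 of its 31099 probe sets. All 8 genes had at least 1 probe set bright enough to test, and 11 of the 13 probe sets were tested among 18625. The members were selected on earlier results of these same arrays, in which the comparisons with uninjured neurons had been seen. Their values in those comparisons are therefore a description. The comparison within animals was not the one they were chosen by, but it shares the Non-regenerating arrays with it.

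The study captured retrogradely labelled rat spinal cord neurons with a laser from 10 µm sections, 1000 neurons a sample, amplified their RNA in 3 rounds and hybridised it to 17 single-colour oligonucleotide arrays. Regenerating (7 arrays) and Non-regenerating (7 arrays) neurons were taken after axotomy, the cutting of axons, from 7 rats that each gave both. These are called MOON265 and MOON266, and MM11, MM13, MM14, MM16 and MM17. Traced neurons (3 arrays) came from the other 3 rats, MM15, MM18 and MM19, and were labelled but not axotomised. The title of MM15 adds that it is a high yield replicate, with no explanation. Strain, age, the lesion, any graft and the time after injury are not given in the sources used here, and no agent or allele is named for any group.

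Galectins are lectins that bind galactose-containing sugars on glycoproteins and glycolipids, inside and outside the cell. Annexins bind acidic phospholipids when calcium rises, and act at the plasma membrane in repair, vesicle traffic and the control of inflammation. In the injured nervous system several of these genes are known both from reactive microglia and macrophages, which engulf debris, and from neurons that respond to a cut axon. RNA from captured profiles can hold transcripts of the cells that touch them.

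Signals were deposited scaled, with a trimmed mean of 199 to 200 on every array, so that levels are compared after that scaling. The median probe set signal was lower on arrays of MOON animals (32.8 to 39.0) than on arrays of MM animals (45.2 to 76.9). By group it was 32.8 to 60.6 on Regenerating, 33.9 to 76.9 on Non-regenerating and 63.7 to 76.0 on Traced arrays. Every Traced array thus had a higher median than every Regenerating array. The arrays of Non-regenerating MM17 and Traced MM15 stood apart: 12.4% and 11.9% of their signal lay in the 100 brightest probe sets, and 3.85% to 7.31% on the other arrays. No MOON animal gave a Traced array. Snap25, a synaptic protein gene of neurons, was bright on every array, at 2887 to 6486 in Regenerating, 2850 to 10418 in Non-regenerating and 3834 to 11154 in Traced neurons. Some other neuronal markers were lower in both axotomised groups: Syn1, a synaptic vesicle protein gene, differed from Traced neurons by -2.07 (SE 0.44) in Regenerating and -1.79 (SE 0.67) in Non-regenerating neurons, and Syt1 by -0.96 (SE 0.28) and -0.76 (SE 0.35), none of them called. Of the 14 neuronal markers tested, 4 were higher than in Traced neurons in each comparison. Among these were Elavl4 at 0.41 (SE 0.27) in Regenerating and Map2 at 0.31 (SE 0.34) in Non-regenerating neurons. Every difference is in log2(signal + 16) units, which understates the change of dim genes, and is given with its standard error (SE).

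The promoters of Anxa2, Anxa3 and Gpnmb are shown because Anxa2 was the member with the smallest p between Regenerating and Non-regenerating neurons, Anxa3 stood above Traced neurons in both axotomised groups, and Gpnmb is a known target of the MITF and TFE family. Letters in capitals are matches to TGANTCA, the AP-1 element bound by Jun and Fos proteins, or to TCATGTG, the M-box of MITF-type factors, both searched on both strands. The sequences are RefSeq's upstream bases in build GRCr8, which end just before the annotated gene. They were read at chr8:78986002-78986251 (+ strand, Anxa2), chr14:13085679-13085847 (− strand, Anxa3) and chr4:79340878-79341127 (+ strand, Gpnmb).
Anxa2: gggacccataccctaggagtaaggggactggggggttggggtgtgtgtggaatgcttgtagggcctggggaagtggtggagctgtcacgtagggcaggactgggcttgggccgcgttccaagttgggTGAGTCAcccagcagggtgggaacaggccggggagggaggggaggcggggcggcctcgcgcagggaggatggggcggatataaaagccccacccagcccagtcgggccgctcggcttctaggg
Anxa3: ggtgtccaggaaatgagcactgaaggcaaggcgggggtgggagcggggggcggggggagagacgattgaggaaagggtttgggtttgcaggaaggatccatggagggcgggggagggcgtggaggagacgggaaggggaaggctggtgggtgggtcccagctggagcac
Gpnmb: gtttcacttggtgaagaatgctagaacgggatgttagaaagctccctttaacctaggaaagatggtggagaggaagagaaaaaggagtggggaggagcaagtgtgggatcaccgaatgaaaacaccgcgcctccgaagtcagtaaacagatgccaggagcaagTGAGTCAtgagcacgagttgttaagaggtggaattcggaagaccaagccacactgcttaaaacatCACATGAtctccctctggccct
The Anxa2 window holds 1 AP-1 match, which starts 123 bases before its end. Gpnmb holds an AP-1 match that starts 87 bases before its end and an M-box match 22 bases before it, read here on the opposite strand. No match to either motif stands in the Anxa3 window, which is shorter (169 bases, against 250 for the other two). Among 33469 rat promoters, 6.34% hold the AP-1 letters and 3.07% the M-box letters within 250 bases upstream. Of the 6 members with a promoter in the table, 2 held the AP-1 letters (Anxa2 and Gpnmb) and 1 held the M-box letters (Gpnmb).

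Lgals3 encodes galectin-3, a lectin abundant in activated macrophages and microglia. Its signal was 274.8 at lowest, 403.4 at the median and 739.4 at highest in Regenerating neurons, 230.2, 315.3 and 396.2 in Non-regenerating neurons, and 69.3, 70.9 and 125.1 in the 3 Traced samples. Every axotomised sample was therefore above every Traced sample, while the axotomised groups overlapped. Relative to Traced neurons, Lgals3 was 4.24-fold higher in Regenerating neurons (2.08, SE 0.30) and 3.22-fold higher in Non-regenerating neurons (1.69, SE 0.25), on the offset scale. Within animals the difference was 0.40 (SE 0.15, n = 7 animals), with the Regenerating sample higher in 6 of 7. Its limma adjusted p was 0.678, and the two-sided exact sign-flip test over the 7 animals gave p = 0.0469, where 0.0156 is the smallest value that 7 animals allow. Without MM11 the within-animal difference was 0.28.

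Lgals1 encodes galectin-1, known in peripheral nerve injury as a factor that promotes axon growth. It ranged from 42.7 through a median of 152.0 to 431.6 in Regenerating neurons, from 36.8 through 84.9 to 109.2 in Non-regenerating neurons, and from 79.6 to 136.7 in Traced neurons. All groups overlapped. The within-animal difference was 0.80 (SE 0.21), with 6 of 7 animals higher in Regenerating neurons, a limma adjusted p of 0.54 and an exact sign-flip p of 0.0313. Without MM14 the within-animal difference was 0.62, and without MM17, whose Non-regenerating array stood apart, it was 0.69. The mean difference was 1.08 in the MM animals, where 5 of 5 were higher. In the 2 MOON animals it was 0.11, with 0.33 in MOON265 and -0.12 in MOON266, and whether the animal sets differ was not tested. Against Traced neurons, Lgals1 differed by 0.29 (SE 0.48) in Regenerating and by -0.51 (SE 0.34) in Non-regenerating neurons. The Regenerating value was 0.035 without Regenerating MM14, 0.10 without Traced MM15 and 0.75 in MM animals alone, and the Non-regenerating value was -0.15 with arrays centred on their medians.

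**Figure D1:**
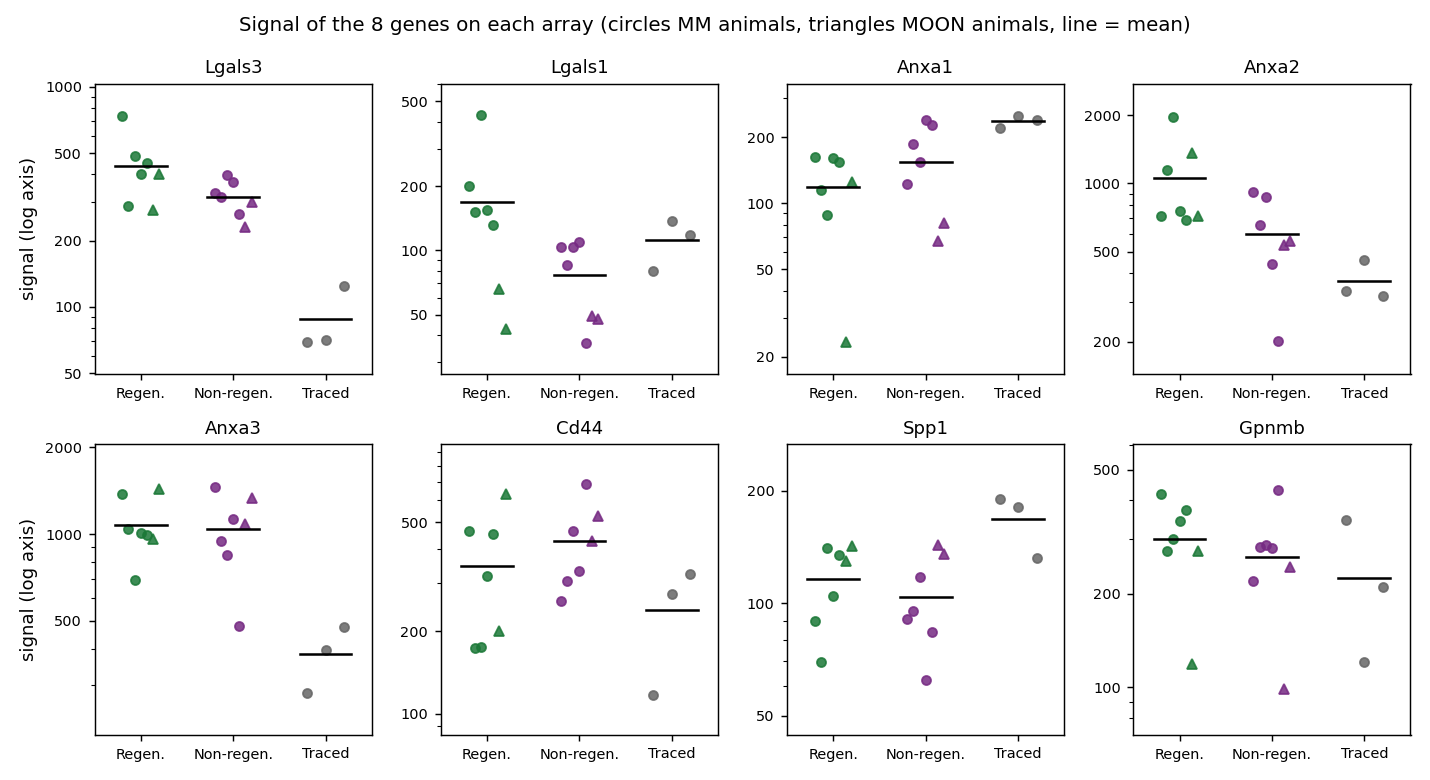
Signal of each of the 8 genes on each array, on a log axis, with 1 point per sample (circles MM, triangles MOON animals) and a line at the group mean, for Regenerating (7), Non-regenerating (7) and Traced (3) neurons. Lgals3 and Anxa3 lie above all Traced samples in both axotomised groups, and Anxa1 lies below them in Regenerating neurons.

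Anxa2 encodes annexin A2, which assembles plasminogen activation at the cell surface and links membranes to actin. Its signal was 685.9, 757.2 and 1973.9 (lowest, median, highest) in Regenerating neurons, 200.9, 555.4 and 912.3 in Non-regenerating neurons, and 319.2, 333.1 and 460.3 in Traced neurons. Regenerating samples all lay above the Traced samples, and Non-regenerating samples spanned both. Its difference within animals was 0.82 (SE 0.19), beside 0.80 for Lgals1, and the Regenerating sample was higher in 6 of 7 animals. By limma p it ranked 15 of 18625 probe sets, with an unadjusted p of 0.00052 and an adjusted p of 0.523, so the difference did not pass. The exact sign-flip p was 0.0313.

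The animals that made up the Anxa2 difference were 1.69 in MM17, 1.33 in MOON265, 1.17 in MM14, 0.79 in MM13, 0.76 in MM16 and 0.37 in MOON266, with -0.34 in MM11 alone below 0. Its mean was 0.82 in MM animals and 0.85 in MOON animals. Leaving out MM11 gave 1.02 with a limma adjusted p of 0.086, the smallest over the alternatives run for this gene. Leaving out MM17, whose Non-regenerating array stood apart, gave 0.68 with a limma adjusted p of 0.551. With array weights the difference was 0.69. Against Traced neurons Anxa2 was 2.59-fold higher in Regenerating (1.38, SE 0.32) and differed by 0.55 (SE 0.37) in Non-regenerating neurons. A second Anxa2 probe set was dim and untested. Averaging it with the first gave 0.51 within animals, and 0.78 and 0.27 in Regenerating and Non-regenerating neurons against Traced neurons. Its signal was 7.9 to 34.5 in Regenerating, 8.5 to 23.5 in Non-regenerating and 7.7 to 20.0 in Traced neurons.

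S100a10 encodes p11, the light chain that binds annexin A2 in a heterotetramer, and comes from a list of annexin partners. Of the 8 tested genes of that list it had the smallest limma p within animals, and it is named for that reason. The list's median difference within animals was 0.07, with 5 of 8 higher. S100a10 had 234.2, 479.0 and 1257.8 in Regenerating neurons, 143.2, 252.3 and 430.5 in Non-regenerating neurons (lowest, median, highest), and 122.3 to 183.6 in Traced neurons. The within-animal difference was 0.80 (SE 0.18), ranked 11 by limma p, with an unadjusted p of 0.000377 and an adjusted p of 0.523. It was higher in Regenerating neurons in 6 of 7 animals, all but MOON266 at -0.10. Anxa2 was lower in a different animal, MM11, where S100a10 was 0.60 higher.

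**Figure D2:**
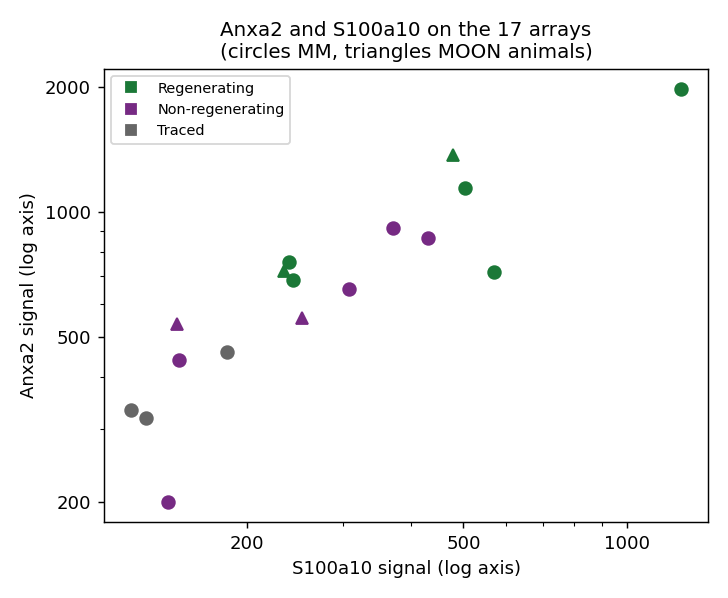
Anxa2 signal (vertical, log axis) against S100a10 signal (horizontal, log axis) on the 17 arrays, with 1 point per array coloured by group, circles for MM and triangles for MOON animals. The brightest Regenerating sample lies at the upper right (1973.9 for Anxa2, 1257.8 for S100a10), and the Traced samples lie at the lower left.

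Anxa3 encodes annexin A3, an annexin of phagocytes that is also known in microglia. Its brightest probe set had 693.3, 1011.9 and 1428.0 in Regenerating neurons, 480.1, 1081.0 and 1461.7 in Non-regenerating neurons, and 281.8, 395.2 and 474.5 in Traced neurons. Both axotomised groups lay above all Traced samples at this probe set, the Non-regenerating group narrowly (480.1 against 474.5), and overlapped each other. It was higher than in Traced neurons by 1.44 (SE 0.25) in Regenerating and by 1.36 (SE 0.31) in Non-regenerating neurons. Within animals it differed by 0.08 (SE 0.15), with 3 of 7 higher, a limma adjusted p of 0.91 and an exact sign-flip p of 0.875. That mean rested on MM17, at 1.02, while the other 6 animals lay between -0.28 and 0.14, and without MM17 it was -0.076.

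Anxa3 was the member with most probe sets, 4 in all, and each gave higher means in both axotomised groups than in Traced neurons. The separation was not shared: at the other 3 probe sets Non-regenerating samples overlapped Traced samples, and at 2 of them Regenerating samples did too. The next brightest averaged 422 in Regenerating, 420 in Non-regenerating and 246 in Traced neurons, which is 0.81 (SE 0.28) above Traced neurons in Regenerating and 0.80 (SE 0.29) in Non-regenerating neurons. Another averaged 158, 180 and 93.6 in that order of groups, 0.52 and 0.46 above Traced neurons. The dimmest had 52.2 to 180.6 in Regenerating, 6.0 to 188.0 in Non-regenerating and 7.7, 8.6 and 14.6 in Traced neurons. It gave the largest Anxa3 differences, 2.07 (SE 0.32) and 1.71 (SE 0.51), although its Traced signals lie below the offset of 16.

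**Figure D3:**
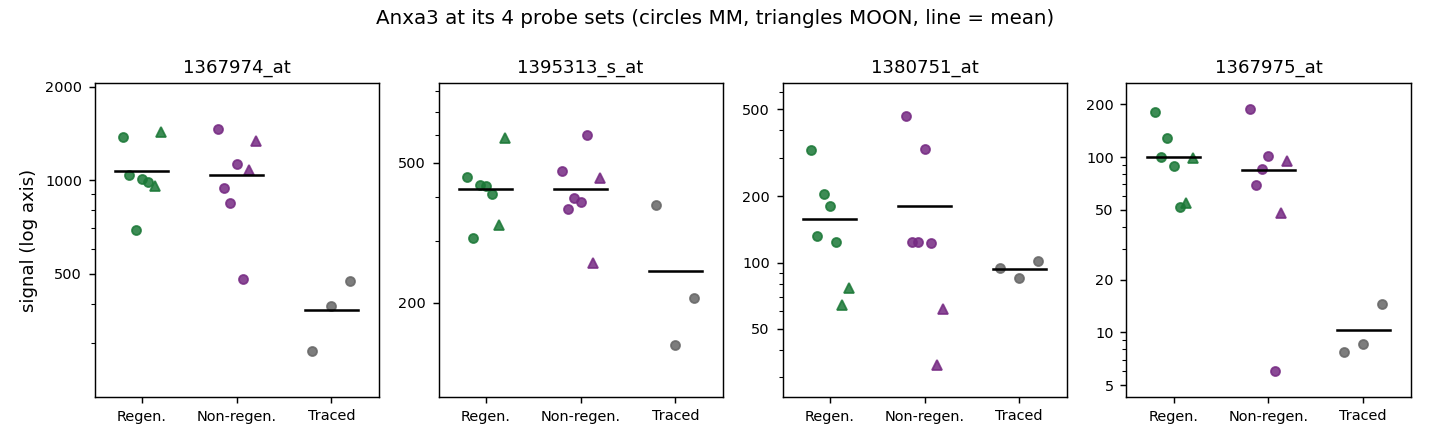
Signal of the 4 Anxa3 probe sets on each array (log axis), with 1 point per sample (circles MM, triangles MOON animals) and a line at the group mean, in Regenerating, Non-regenerating and Traced neurons. Group means are higher in both axotomised groups for each probe set, and 1 Non-regenerating sample (MM17, 6.0) is low on the dimmest.

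Anxa1 encodes annexin A1, which limits inflammation through formyl peptide receptors. Its signal was 23.4, 125.0 and 163.0 (lowest, median, highest) in Regenerating neurons, 67.7, 153.9 and 240.2 in Non-regenerating neurons, and 220.4, 238.9 and 250.2 in Traced neurons. Regenerating samples all lay below the Traced samples, while Non-regenerating samples overlapped them. Against Traced neurons it differed by -1.04 (SE 0.40) in Regenerating and by -0.68 (SE 0.35) in Non-regenerating neurons, opposite in sign to Anxa2 and Anxa3. With arrays centred on their medians these were -0.65 and -0.32. The within-animal difference of -0.37 (SE 0.19) did not pass, with 2 of 7 animals higher, a limma adjusted p of 0.702 and an exact sign-flip p of 0.141.

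Cd44 encodes the receptor for hyaluronan, which also binds osteopontin. It had 174.1, 316.7 and 634.7 in Regenerating neurons, 257.7, 427.5 and 685.4 in Non-regenerating neurons, and 117.3, 273.8 and 324.5 in Traced neurons. All groups overlapped, and the lowest Traced sample was MM15, one of the arrays that stood apart. Against Traced neurons Cd44 differed by 0.46 (SE 0.42) in Regenerating and by 0.84 (SE 0.34) in Non-regenerating neurons. Without Traced MM15 these differences were 0.048 and 0.43, and with the mean of both probe sets 0.081 and 0.23. Leaving out Non-regenerating MM17 as well as Traced MM15 gave 0.31 in Non-regenerating neurons. Within animals it differed by -0.38 (SE 0.21, limma adjusted p of 0.706), with 2 of 7 animals higher and an exact sign-flip p of 0.25. A second Cd44 probe set was dim on all arrays, at 1.4 to 24.2 in Regenerating, 2.5 to 19.7 in Non-regenerating and 2.0 to 37.8 in Traced neurons.

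Spp1 encodes osteopontin, a secreted ligand of integrins and CD44 that is made by some large neurons as well as by phagocytes. It had 69.5, 129.6 and 142.8 in Regenerating neurons, 62.3, 95.3 and 143.7 in Non-regenerating neurons, and 132.3, 181.5 and 190.3 in Traced neurons. The groups overlapped, with most axotomised samples below the Traced samples. Differences from Traced neurons were -0.50 (SE 0.26) in Regenerating and -0.64 (SE 0.28) in Non-regenerating neurons, opposite in sign to Lgals3 and Anxa3. With arrays centred on their medians they were -0.11 and -0.28. The within-animal difference was 0.14 (SE 0.16, limma adjusted p of 0.847), higher in 4 of 7 animals, with an exact sign-flip p of 0.344.

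Gpnmb encodes a membrane glycoprotein of phagocytes with high lysosomal load. It had 119.2, 300.1 and 418.8 in Regenerating neurons, 98.6, 281.4 and 431.5 in Non-regenerating neurons, and 120.5, 210.7 and 344.2 in Traced neurons, and all groups overlapped. It differed from Traced neurons by 0.42 (SE 0.36) in Regenerating and 0.23 (SE 0.38) in Non-regenerating neurons. Single Traced arrays moved both: without MM18 they were 0.069 and -0.13, and without MM15 0.77 and 0.57. Within animals it differed by 0.19 (SE 0.14, limma adjusted p of 0.759), higher in 5 of 7 animals, with an exact sign-flip p of 0.156.

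Between Regenerating and Non-regenerating neurons 0 of the 8 members passed limma's adjusted threshold of 0.05, beside 0.0161% of all tested probe sets (3 of 18625). At an unadjusted limma p under 0.05, 3 members stood out (Lgals3, Lgals1 and Anxa2, each higher in Regenerating neurons), beside 7.08% of all probe sets. The groups overlapped for 8 of 8 members, and 0.0215% of all probe sets did not overlap between them. The members' median difference was 0.17, beside -0.00 over all tested probe sets, and 6 of 8 were higher in Regenerating neurons, beside 49.8% of all. The sign-flip test was run for 8 genes, and its p-values are not adjusted.

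**Figure D4:**
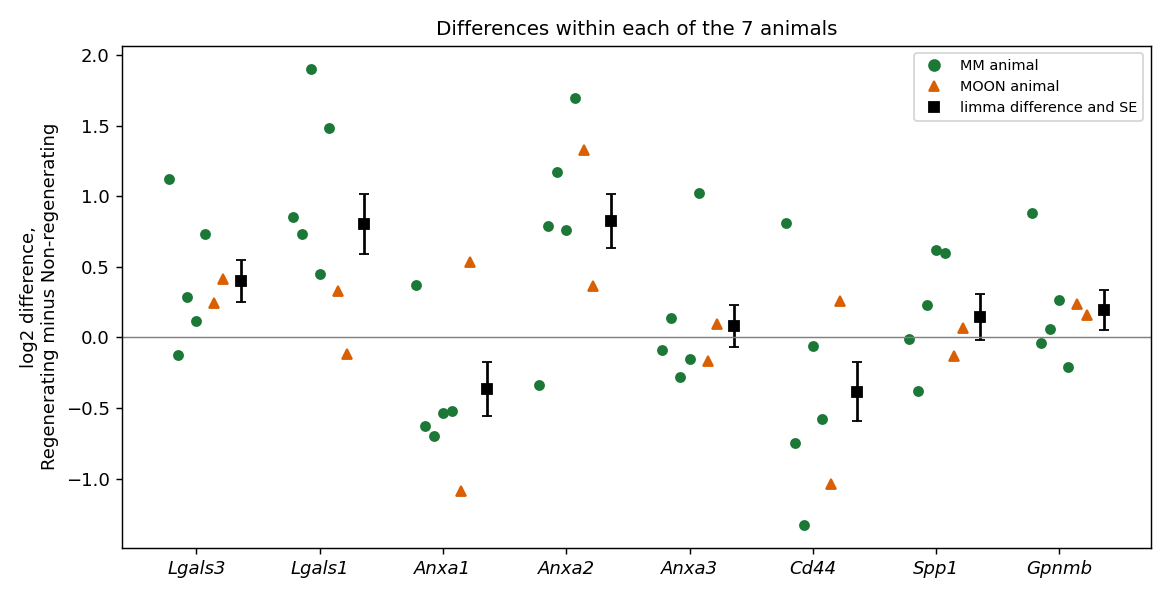
Regenerating minus Non-regenerating difference in log2(signal + 16) for each of the 8 genes, with 1 point per animal (circles MM, triangles MOON) and a black square with a bar for the limma difference and 1 SE. Anxa2, Lgals1 and Lgals3 lie above 0 in 6 of 7 animals each, and Anxa1 and Cd44 lie below 0 in 5 of 7.

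Relative to Traced neurons the members did not move as one group. In Non-regenerating neurons 1 member passed the adjusted threshold (Lgals3), beside 0.043% of all probe sets, and 5 of 8 were higher. In Regenerating neurons 2 passed (Lgals3 and Anxa3), beside 0.215% of all, and 6 of 8 were higher. Since the members were chosen by results of these comparisons, nothing is read from those shares, and both comparisons share the 3 Traced arrays. The members' median difference was 0.44 in Regenerating and 0.39 in Non-regenerating neurons, beside -0.12 over all tested probe sets in each.

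Counted by separation of the samples, 3 of 8 members lay wholly above the Traced samples in Regenerating neurons (Lgals3, Anxa2 and Anxa3), beside 2.35% of all probe sets, and 1 of 8 wholly below (Anxa1), beside 9.36%. In Non-regenerating neurons 2 lay wholly above (Lgals3 and Anxa3), beside 1.1%, and 0 wholly below, beside 1.47%. The Lgals3 call in Regenerating neurons was kept in 18 of 21 alternatives. It was lost without Traced MM18 and without Traced MM15. Leaving out the arrays that stood apart is the same fit here as leaving out Traced MM15, and is counted again among the 21. The Lgals3 call in Non-regenerating neurons was kept in 11 of 21, and that of Anxa3 in Regenerating neurons in 13 of 21. The 40 probe sets called in Regenerating neurons over the whole array split into 29 higher and 11 lower, and into 300 and 50 once arrays are centred on their medians, which moves the median of all probe sets to 0.26.

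**Figure D5:**
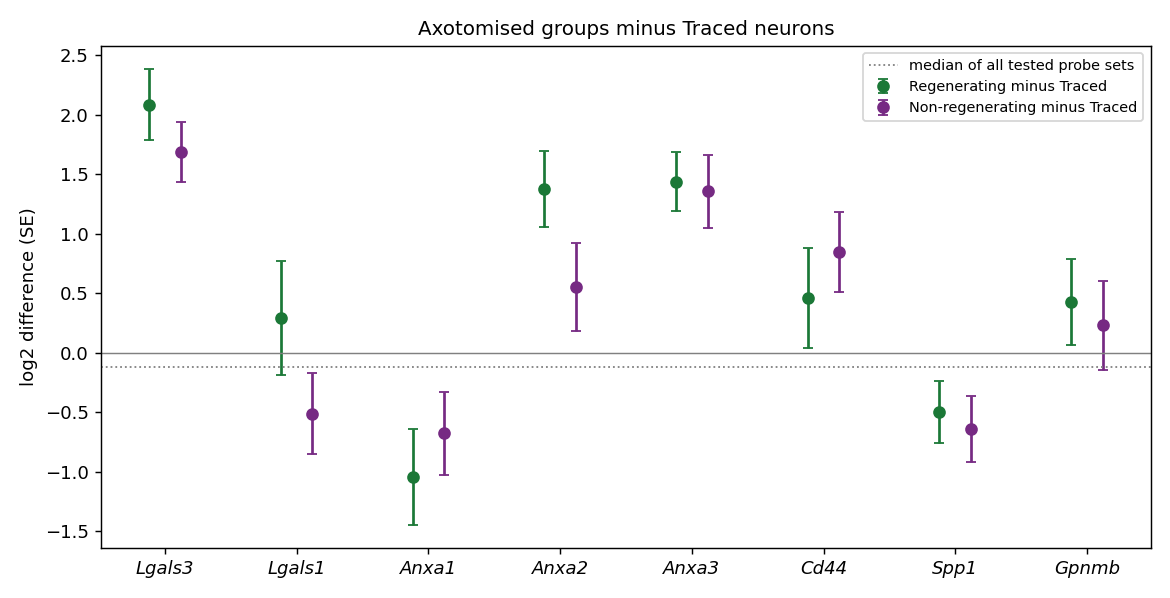
Difference from Traced neurons in log2(signal + 16) for each of the 8 genes, with error bars of 1 SE, in Regenerating and in Non-regenerating neurons, and a dotted line at the median of all tested probe sets (-0.12). Lgals3 and Anxa3 lie highest in both groups, and Anxa1 and Spp1 lie below 0.

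The other listed genes of both families that were tested showed no call in any comparison. Of 8 listed galectin and galectin-related genes 3 were tested (Lgals8, Lgals3bp and Lgalsl), with 0 called. The one with the smallest p within animals was Lgals8 at 0.25 (SE 0.14). Lgals3bp, whose product binds galectin-3, differed from Traced neurons by 0.68 (SE 0.32) in Regenerating and 0.28 (SE 0.39) in Non-regenerating neurons. Of the other annexin genes 6 of 9 were tested and 0 called. Anxa8 had the smallest p of these against Traced neurons, with differences of -1.17 (SE 0.39) in Regenerating and -0.96 (SE 0.44) in Non-regenerating neurons, and like Anxa1 it was lower in both. Anxa11 differed by 0.55 (SE 0.21) and 0.46 (SE 0.23) in those groups. Anxa5, the phosphatidylserine-binding annexin used to stain dying cells, had 772.5, 1170.1 and 1620.5 in Regenerating, 666.5, 797.0 and 1280.4 in Non-regenerating, and 633.0, 754.2 and 783.0 in Traced neurons. It was higher in Regenerating neurons in 7 of 7 animals by 0.33 (SE 0.12, limma adjusted p of 0.678).

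Among annexin partners 8 of 12 genes were tested, with 0 called in any comparison. Their median difference was 0.07 within animals, 0.49 in Regenerating and 0.39 in Non-regenerating neurons relative to Traced neurons. S100a4, a calcium-binding protein of motile cells, differed from Traced neurons by 1.64 (SE 0.44) in Regenerating and 1.45 (SE 0.45) in Non-regenerating neurons. Its Traced signals were 8.3, 79.5 and 103.1, the lowest of them below the offset. Regenerating (94.5 to 270.9) and Non-regenerating (82.5 to 272.6) samples overlapped the Traced samples. CD44 ligands and partners (10 of 15 tested) and osteopontin and GPNMB receptors and partners (10 of 14 tested) had 0 calls each. Cd74, the invariant chain that pairs with CD44, differed from Traced neurons by 1.53 (SE 0.36) in Regenerating and 1.08 (SE 0.30) in Non-regenerating neurons. Mitf, whose factor binds the M-box letters, was 1.27 (SE 0.41) and 1.11 (SE 0.49) above Traced neurons in those groups, while Tfeb, a related lysosomal factor, differed by -1.37 (SE 0.36) and -0.75 (SE 0.43).

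Genes of phagocytosis and lipid handling (23 of 28 tested) had a median difference of 0.10 within animals, with 0 called. Relative to Traced neurons their medians were 0.65 in Regenerating and 0.59 in Non-regenerating neurons. Abca1, a cholesterol exporter, was the single gene of the list called, higher by 1.503 (SE 0.27) in Regenerating neurons, and was 1.26 (SE 0.21, limma adjusted p of 0.0522) above Traced neurons in Non-regenerating neurons, where 0 of the list were called. Npc2, a lysosomal cholesterol carrier, differed by 1.07 (SE 0.23) in Regenerating and 1.11 (SE 0.24) in Non-regenerating neurons.

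Markers of microglia and macrophages moved beside Lgals3 and Anxa3. Of 30 listed genes 28 were on the array, and their summed signal was 14492 to 24564 in Regenerating and 13432 to 21969 in Non-regenerating neurons, against 8252 to 9351 in Traced neurons, without overlap. Of the 24 tested, 4 were called higher in Regenerating neurons, beside 0.215% of all probe sets called in either direction. In Non-regenerating neurons 1 was called higher, beside 0.043% of all. Median differences of the 24 from Traced neurons were 0.79 and 0.74 in those groups. Fcgr2b, an inhibitory Fc receptor, was 2.65 (SE 0.36) higher in Regenerating and 2.34 (SE 0.34) higher in Non-regenerating neurons. Of the defining markers, C1qa had 754.7 to 1755.8 in Regenerating, 671.6 to 1766.5 in Non-regenerating and 377.6 to 483.4 in Traced neurons. Cd68 did not overlap Traced neurons either (328.0 to 998.3, 331.8 to 737.5 and 224.4 to 319.8 in that order). Csf1r (546.5 to 1693.2, 678.1 to 1352.4 and 604.5 to 692.6) and Aif1 (49.4 to 565.8, 70.6 to 493.2 and 13.6 to 90.7) overlapped them in both axotomised groups. Ptprc overlapped them in Non-regenerating neurons only (207.9 to 1204.9, against 77.2 to 251.9). The Itgam probe set was at or below 7.3 on every array. In captured samples, fewer cells of a type and less RNA per cell cannot be told apart.

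Between Regenerating and Non-regenerating neurons those sums overlapped over most of their ranges, with medians of 15243 and 15619 and the highest in a Regenerating sample. The median difference over the 24 genes within animals was 0.09, with 0 called and with 6 higher and 1 lower at an unadjusted limma p under 0.05. The part of these cells in the members' values was not tested. Astrocyte markers summed to 18234 to 27896 in Regenerating, 16781 to 31268 in Non-regenerating and 17087 to 23420 in Traced neurons, and Gfap alone of 12 tested was called, 1.33 (SE 0.22) higher in Regenerating neurons, and was 1.37 (SE 0.24, limma adjusted p of 0.0716) above Traced neurons in Non-regenerating neurons. Neutrophil markers, 7 on the array, summed to 64.6 to 158.5 in Regenerating, 89.2 to 242.2 in Non-regenerating and 128.8 to 158.4 in Traced neurons. The 2 tested, Np4 and Csf3r, reached 92.0 and 89.1 and were not called, and S100a9 was no higher than 16.5 on any array. Lists of oligodendrocyte, fibroblast, endothelial, lymphocyte and neuronal markers had 0 calls in the comparisons with Traced neurons, with medians between -0.52 and -0.04.

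Likeness was measured over the 17 arrays as Pearson's r of log2 signal after the mean of each animal name prefix was removed, among 10423 genes that are no members. These values are descriptions, and the arrays share groups, animals and scaling. Lgals3 was most like Fcrl2 (r 0.946), Fcgr2b (r 0.936) and Blnk (r 0.935), an Fc receptor family member, an Fc receptor and an adaptor known from B cells and phagocytes. Anxa3 was most like Slc14a1 (r 0.948), Bnip2 (r 0.940) and Ptprc (r 0.936), the last of which encodes the leukocyte antigen CD45. Anxa2 was most like Serpinb6a (r 0.910), Rufy3 (r 0.909) and S100a10 (r 0.909).

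Lgals1 was most like Bag3 (r 0.929), Coa3 (r 0.914) and Tmod2 (r 0.912), a set without a listed phagocyte marker. Gpnmb was most like Glipr1 (r 0.874), Clec4a3 (r 0.865) and Clec7a (r 0.849), of which the last 2 encode myeloid lectin receptors. Cd44 was most like Marcksl1 (r 0.899), Nckap1l (r 0.799) and Gstt2 (r 0.789). Anxa1 was most like Slc16a7 (r 0.894), Cytip (r 0.880) and H2-Q7-ps1 (r 0.875), and Spp1 was most like Mlip (r 0.856), Eif5a (r 0.840) and Mpp4 (r 0.830). No gene appeared in the top 3 of more than 1 member.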

How the data were processed

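The authors deposited 1 table of intensity values (signals) for 31099 probe sets on 17 arrays, made with GCOS per the submitters' processing notes; its version and settings are not given in the sources used here. Probe sets were named from the platform annotation, of which 20832 have 1 gene symbol, 436 several and 9831 none. The 57 control probe sets and the 12417 with a mean log2 signal below the 40th percentile were left out. log2(signal + 16) was fitted with limma 3.58.1 in R 4.3.3 (lmFit, eBayes with trend, Benjamini-Hochberg over 18625 probe sets, called under 0.05). Regenerating and Non-regenerating samples were compared with the animal as block, taken from the titles. Deviations from the mean of the group and name prefix correlated between the samples of 1 animal at r 0.13 to 0.55. MOON265 and MOON266 have the same r (0.13) by construction, and r between different animals was not measured. Each axotomised group was compared with Traced samples without a block. Animals are the replicates, and whether arrays of a group were run together is not given. A gene's main probe set is its brightest tested one. Of other lists, up to 3 genes with the smallest p and defining cell type markers are named. The members and lists were chosen with earlier results of these data known. The method was tested on simulated data with independent noise smaller than that of these arrays and with no animal effect. That run does not show how the method performs on these arrays. The number of arrays limits the precision. Array weights, scaling, offset, filter, probe set rule, block and left-out arrays were varied.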

Additional observations from a re-analysis of the deposited data

Results flagged for a closer look

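Among 34 groups of values examined, 3 held a sample whose gap to its neighbour was large for the range of its group, and chance gives this in about 5% of groups. Lgals1 had a signal of 431.6 in Regenerating MM14, far above the other 6 Regenerating samples. The dim second Anxa2 probe set had 23.5 in Non-regenerating MM13. The Anxa3 within-animal difference was 1.02 in MM17, whose Non-regenerating array stood apart, and between -0.28 and 0.14 in the other 6 animals.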

How the results depend on the processing

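Between Regenerating and Non-regenerating neurons 0 of 8 members were called under every alternative run, and over the whole array 0 to 3 probe sets were called. In the paired design, the fit with no replicate block also called 0 members, with Anxa2 at 0.82 and an adjusted p of 1.0. The Anxa3 difference turned to -0.0023 with array weights and to -0.036 in MOON animals alone. It was -0.076 without animal MM17, whose Non-regenerating array stood apart, and lay between -0.076 and 0.141 with each animal left out. Spp1 turned to -0.032 in MOON animals alone. For Non-regenerating minus Traced, where 1 member was called, the number was 0 with an offset of 64, without the arrays that stood apart and in MM animals alone, 3 with array weights, and 0 to 2 with each sample left out. Gpnmb there lay between -0.13 (without Traced MM18) and 0.57 (without Traced MM15) with each sample left out, and was 0.59 with arrays centred on their medians. For Regenerating minus Traced, where 2 members were called, the number was 0 without Traced MM15, the only array of this comparison that stood apart. It was 1 with the mean of all probe sets, 5 with array weights, and 0 to 3 with each sample left out. Cd44 there turned to -0.051 with array weights. Over the whole array, Non-regenerating minus Traced called 8 probe sets, and 2 to 37 under alternatives other than array weights (2440). Regenerating minus Traced called 40, and 1 to 1504 (3131 with array weights). The causes were not tested. A filter at the 70th percentile left Lgals1 and Spp1 untested. With 3 Traced arrays, calls against Traced neurons depend on each of them, and 25.0% of all signals lie at or below the offset of 16.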
